A study of Mus musculus with 8 samples.

Results

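The transcripts described here are those that differed between Klf6-silenced and control oligodendrocyte progenitors (OLP), the dividing cells that mature into the glia which wrap axons in myelin. All 275 rows of the deposited OLP table were taken, of 387 rows in both tables of the series. The series sequenced RNA from 8 cultures in 4 groups. The OLP groups were primary cultures from C57BL/6 mice, kept in PDGF-AA at 10 ng/ml and bFGF at 20 ng/ml and nucleofected (electroporated to carry RNA into the cells) with a Klf6 siRNA (siKlf6) or a control siRNA without a target (NT), 2 cultures each. Both groups therefore shared the growth factors and the nucleofection. The other 2 groups, immature oligodendrocytes (iOL), had also received T3, the active thyroid hormone, for 18 h at 40 ng/ml and fill the second table, of 112 rows.

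Expression is given as FPKM, a fragment number corrected for how long the transcript is and how many fragments were mapped, with a single value for each condition. That value pools the cultures of the condition. No value per culture stands in the tables, so no difference below has an error or a replicate check, and the read depth is unknown. Every row had passed the authors' significance call, and the words "rose" and "fell" rest on that call alone. The size of a change is log2((siKlf6 FPKM + 1)/(NT FPKM + 1)), called the log2 change, which understates changes of transcripts near or under 1 FPKM. A gene without a row is described as not listed and has no value or direction here. In such bulk cultures fewer cells of a type and less RNA per cell cannot be told apart.

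Klf6 is a zinc finger transcription factor of the Klf/Sp family, whose members bind GC-rich and CACCC-type promoter sequences, and it is induced rapidly by injury, serum and cytokines. Cytokines of the interleukin-6 family signal through the receptor subunit gp130, Jak kinases and the transcription factor Stat3, which induces genes together with its own inhibitors, the Socs proteins. Immediate-early genes such as Fos and Junb are switched on within minutes by growth factors and cytokines without new protein synthesis, and their messages are short-lived.

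The stretches below lie upstream of genes that the results turn on, 250 bases up to the base before the RefSeq start site, on the strand of the gene. Capitals mark the GC box GGGCGG, or CCGCCC where it lies on the other strand, which Klf/Sp proteins can bind, and the STAT letters TTCNNNGAA, which read alike on both strands. Klf6 is shown as the silenced gene, and Il6st and Fosl2 as a receptor and a transcription factor that fell. Socs3, Irf1 and Sbno2 are genes of the Stat3-target list that fell, and Bcl6 is the gene of that list that rose. The last 4 of these were picked because the STAT letters are present. For Sbno2 and Bcl6 the annotated start shown was also picked because its stretch holds such letters. The promoter windows of Junb, Fos, Arid5a, Pim3 and Cebpb, which are on the same list and fell, hold none.
Klf6, chr13:5861239-5861488, plus strand: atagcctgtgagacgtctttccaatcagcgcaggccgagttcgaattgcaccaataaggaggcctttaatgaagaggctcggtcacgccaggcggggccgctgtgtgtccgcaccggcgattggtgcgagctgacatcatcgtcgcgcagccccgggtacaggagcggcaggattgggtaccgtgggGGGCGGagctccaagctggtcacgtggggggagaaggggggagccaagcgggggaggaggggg
Il6st, chr13:112463820-112464069, plus strand: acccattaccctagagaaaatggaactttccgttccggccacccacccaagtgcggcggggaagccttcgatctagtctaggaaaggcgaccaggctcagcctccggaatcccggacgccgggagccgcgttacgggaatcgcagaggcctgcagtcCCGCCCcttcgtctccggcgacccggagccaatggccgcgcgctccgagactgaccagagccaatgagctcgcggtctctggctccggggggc
Fosl2, chr5:32136222-32136471, plus strand: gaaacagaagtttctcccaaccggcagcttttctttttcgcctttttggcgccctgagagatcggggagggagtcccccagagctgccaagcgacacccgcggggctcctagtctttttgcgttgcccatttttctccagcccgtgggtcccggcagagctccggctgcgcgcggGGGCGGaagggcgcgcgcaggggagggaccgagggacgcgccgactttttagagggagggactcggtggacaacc
Socs3, chr11:117969367-117969616, minus strand: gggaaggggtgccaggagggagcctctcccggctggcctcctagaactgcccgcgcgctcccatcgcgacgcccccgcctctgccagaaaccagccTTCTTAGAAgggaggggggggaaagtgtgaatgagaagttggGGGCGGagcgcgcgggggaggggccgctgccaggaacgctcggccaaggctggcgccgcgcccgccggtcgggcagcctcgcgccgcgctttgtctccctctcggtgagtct
Irf1, chr11:53769764-53770013, plus strand: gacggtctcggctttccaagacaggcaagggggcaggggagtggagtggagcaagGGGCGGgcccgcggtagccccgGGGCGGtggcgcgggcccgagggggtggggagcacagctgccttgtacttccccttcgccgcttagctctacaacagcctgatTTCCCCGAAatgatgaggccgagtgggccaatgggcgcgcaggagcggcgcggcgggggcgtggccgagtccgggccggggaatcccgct
Sbno2, chr10:80101188-80101437, minus strand: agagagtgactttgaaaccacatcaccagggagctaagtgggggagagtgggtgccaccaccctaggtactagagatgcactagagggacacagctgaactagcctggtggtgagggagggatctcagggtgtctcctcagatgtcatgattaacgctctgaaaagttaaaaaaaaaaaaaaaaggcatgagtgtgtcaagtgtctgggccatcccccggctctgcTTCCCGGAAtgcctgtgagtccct
Bcl6, chr16:23981284-23981533, minus strand: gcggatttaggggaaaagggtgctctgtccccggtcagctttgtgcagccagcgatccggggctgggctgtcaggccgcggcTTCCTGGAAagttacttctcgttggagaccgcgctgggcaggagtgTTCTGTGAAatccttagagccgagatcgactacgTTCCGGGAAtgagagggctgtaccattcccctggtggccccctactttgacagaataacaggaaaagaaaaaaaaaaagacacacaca
These coordinates are of GRCm38.p6, a later build than the mm9 build of the tables. The GC box stood in 32.7% and the STAT letters in 7.01% of all 32817 promoter stretches of this length, those of non-coding genes included. In windows that also reach past the start site, the GC box stood in 35.6% of all promoters and 46.2% of protein-coding ones. For the STAT letters these shares were 8.29% and 7.69%. Klf6, Il6st, Fosl2 and Socs3 each held 1 GC box here and Irf1 held 2, while Bcl6 held the STAT letters 3 times. Irf1, Sbno2 and Bcl6 have further annotated starts. A match of letters is a description and not a binding site. Only 71.3% of the rows with a single symbol could be paired with a promoter, so no share over the risen or fallen genes is given.

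Klf6 itself read 38.6 FPKM in NT and 20.0 FPKM in siKlf6 cultures, so that 51.8% of the control level remained. Of the 216 transcripts that fell (78.5% of the 275), 86 fell further than Klf6 on the log2 scale. That count of 86 depends on the 1 FPKM added to each value. The falls outnumbered the 59 rises (21.5%) and were also deeper. At least 2-fold lower were 71 transcripts (25.8%), and at least 2-fold higher were 6 (2.18%), together 77 (28%). These counts depend on the added 1 FPKM, since with none added 131 were lower and 24 higher by that much, and with 5 FPKM added 31 were lower. The median log2 change was -0.84 among the falls and 0.72 among the rises. The 2-fold limit was reached just inside by Ndfip2, at a log2 change of -1.001, and just missed by Adamts15, at -0.99. Transcripts that fell had a median of 11.2 FPKM in NT and 4.25 FPKM in siKlf6 cultures, and those that rose had medians of 6.71 and 12.1 FPKM, an order that the choice by direction favours. In siKlf6 cultures 54 of the falls ended under 1 FPKM.

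**Figure D1:**
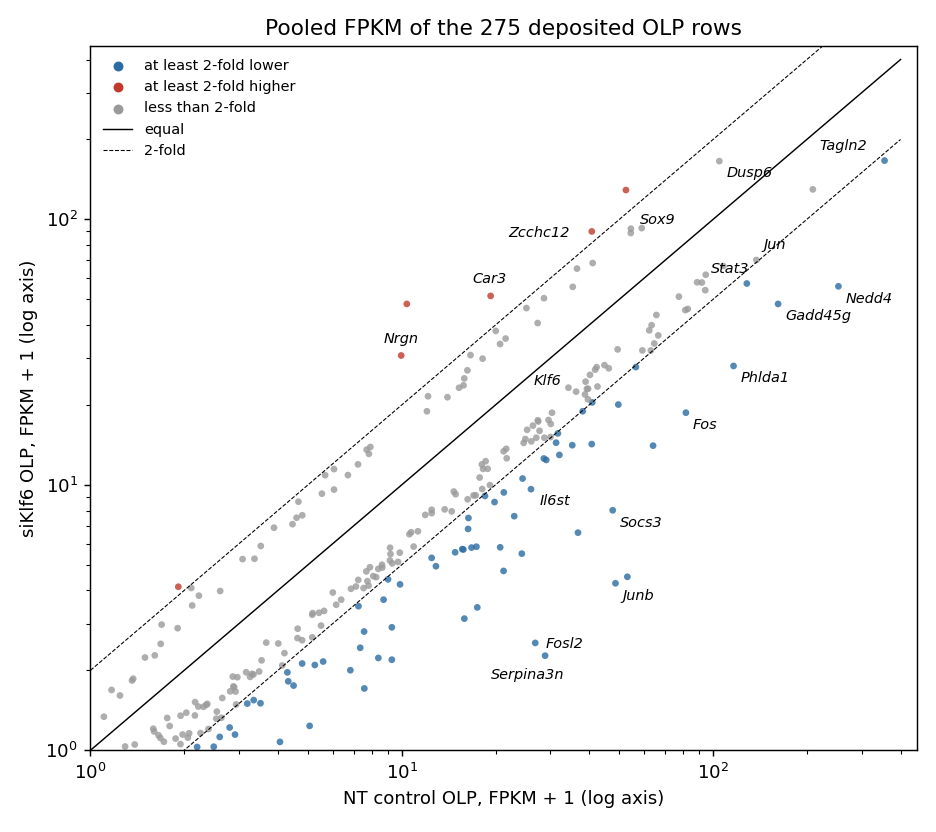
Pooled FPKM of the 275 rows in NT control (horizontal) and siKlf6 cultures (vertical), each with 1 FPKM added and on a log axis, with 1 point per row, a solid line where both are equal and dashed lines at 2-fold. The band along the solid line is empty because the table lists only rows that passed the authors' call, and the 71 blue points at least 2-fold lower spread farther from the line than the 6 red points at least 2-fold higher.

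The deepest falls came from genes of several kinds. Serpina3n, a secreted serine protease inhibitor of reactive glia, fell from 27.9 to 1.27 FPKM (log2 change -3.67). Junb, an AP-1 transcription factor, fell from 47.6 to 3.26 FPKM (-3.51). Fosl2, a Fos-related AP-1 factor, fell from 25.8 to 1.54 FPKM (-3.40). In siKlf6 cultures each of these 3 transcripts kept under 10% of its control level. Csrnp1, a nuclear protein first found as induced by axin, fell from 16.5 to 2.45 FPKM (-2.34). Adamts1, a secreted metalloprotease that cleaves proteoglycans, fell from 63.1 to 13.04 FPKM (-2.19). Phlda1, a pleckstrin-homology-like protein induced by growth factors, fell from 115 to 27.0 FPKM (-2.05). The short non-coding transcript Mir124a-3 read 52.0 FPKM in NT and 3.50 FPKM in siKlf6 cultures (-3.56), but FPKM is uncertain for so short a locus and this row was left out of the ranking.

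**Figure D2:**
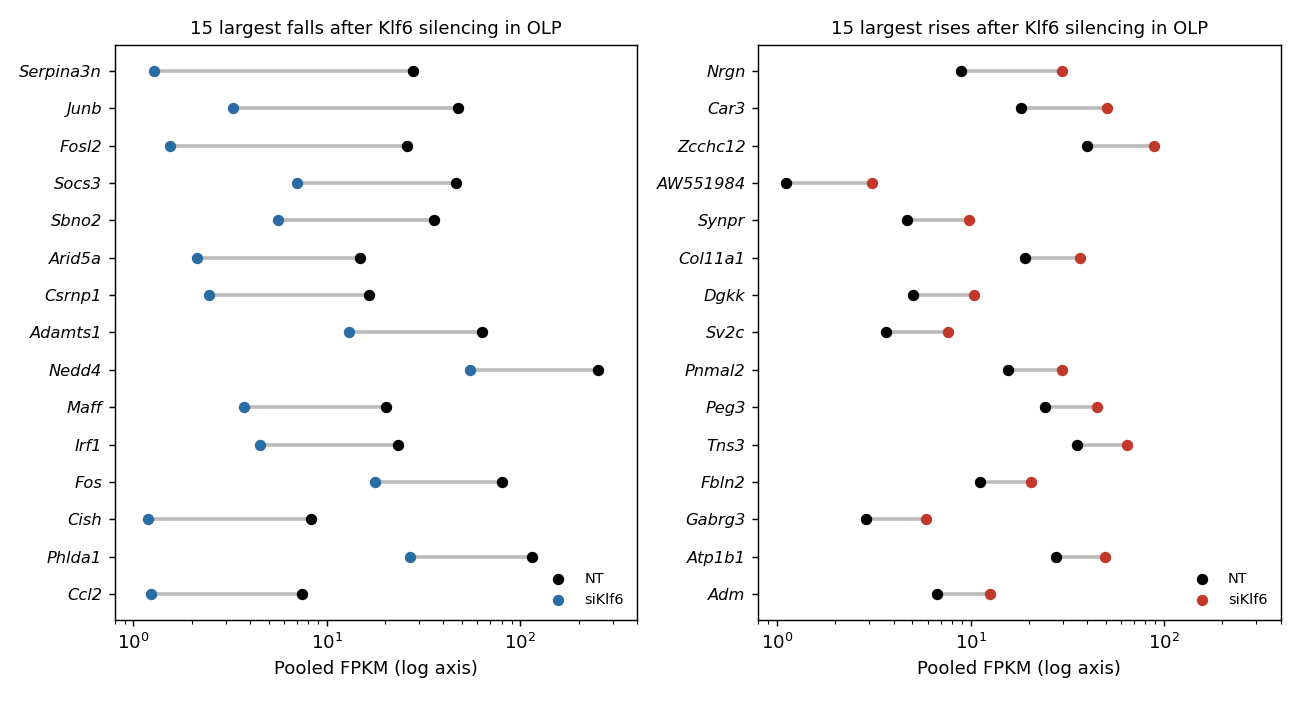
Pooled FPKM (log axis) in NT (black) and siKlf6 cultures (coloured) for the 15 largest falls (left) and the 15 largest rises (right) among single-symbol rows that reach 1 FPKM in NT as well as in siKlf6 cultures and whose locus spans 500 bp or more. The falls run from Serpina3n, at a log2 change of -3.67, to Ccl2, at -1.92, whereas the largest rise, of Nrgn, was 1.62.

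The gp130 pathway was represented from receptor to feedback inhibitor, and all of its listed genes fell. This list and those below were chosen with earlier results of these data known, so their shares are descriptions. Of 26 genes on the list 7 had a row, 7 of them lower and 5 at least 2-fold lower. Over all 275 rows 78.5% were lower and 25.8% at least 2-fold lower. The median log2 change was -1.43 for the list and -0.76 over all rows. Il6st, which encodes gp130 itself, fell from 24.995 to 8.63 FPKM (-1.43). Osmr, the receptor subunit that pairs with gp130 to bind oncostatin M, fell from 1.49 to 0.0313 FPKM (-1.27), a level too low for its fold to be read closely. The listed kinase and Stat3 fell less. Jak1, a kinase bound to gp130, read 26.3 FPKM in NT and 16.5 FPKM in siKlf6 cultures (-0.64). Stat3 fell from 91.0 to 56.8 FPKM (-0.67), and remained the most abundant listed transcript of the pathway.

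The feedback inhibitors Socs3, Cish and Socs2 fell as well. Socs3, which binds gp130 and blocks its Jak kinases, fell from 46.6 to 7.02 FPKM (-2.57). Cish, a Socs-family inhibitor of Stat5 signalling, fell from 8.29 to 1.19 FPKM (-2.08). Socs2, which restrains growth hormone signalling, fell from 4.06 to 0.236 FPKM (-2.03). Each of the 3 inhibitors fell further than Il6st, Jak1 and Stat3, whereas their order against Osmr depends on the added 1 FPKM, without which Osmr read 47.5-fold lower and Socs3 6.64-fold lower.

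Genes that Stat3 is known to induce made up the group with the second deepest median, a rank that depends on the added 1 FPKM. Of 23 on the list 15 were listed, 14 lower and 12 at least 2-fold lower, beside 78.5% and 25.8% over all rows. Their median was -1.92, and their summed FPKM went from 415 to 122. Sbno2, a transcriptional co-regulator of the interleukin-10 response, fell from 35.8 to 5.60 FPKM (-2.48). Arid5a, an RNA-binding protein that stabilises inflammatory messages, fell from 14.9 to 2.13 FPKM (-2.34). Irf1, an interferon regulatory transcription factor, fell from 23.3 to 4.50 FPKM (-2.14). Ccl2, a chemokine for monocytes, fell from 7.41 to 1.23 FPKM (-1.92), and the kinase gene Pim3 from 30.7 to 14.6 FPKM (-1.02). Myc, a driver of cell growth, fell only from 87.8 to 56.9 FPKM (-0.62). The exception was Bcl6, a transcriptional repressor, which rose from 3.59 to 6.52 FPKM (0.71). The list overlaps others. Socs3 and Osmr are also on the gp130 list, Junb and Fos on the AP-1 list, Irf1 and Ccl2 on the NF-kB list, Myc and Cebpb on the list of other immediate-early genes, Serpina3n on that of protease control and Gfap among the astrocyte markers.

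AP-1 is a dimer of Fos-family and Jun-family proteins, and the related Atf and Maf proteins join it. All 6 listed of 19 genes fell, 5 of them at least 2-fold, beside 78.5% and 25.8% over all rows. Their median of -2.16 was the deepest of the function lists with more than 1 listed gene. Fos fell from 80.7 to 17.7 FPKM (-2.13). Maff, a small Maf protein, fell from 20.2 to 3.74 FPKM (-2.16), and the stress-induced Atf3 from 6.58 to 0.709 FPKM (-2.15). Jun was the most abundant and the least reduced of the 6, from 137 to 69.3 FPKM (-0.97). In NT cultures Jun read above Fos, Junb and Fosl2, and in siKlf6 cultures the gap to each of these was wider as a ratio.

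Other immediate-early genes fell as well. Of 39 on the list 20 were listed, 19 lower and 11 at least 2-fold lower, beside 78.5% and 25.8% over all rows. Their median was -1.16. Gadd45g, a stress-response gene of growth arrest, fell from 161 to 47.0 FPKM (-1.75), and its relative Gadd45b from 6.57 to 1.8 FPKM (-1.43). Nfil3, a basic leucine zipper repressor, fell from 11.9 to 3.93 FPKM (-1.38). Bhlhe40, a repressor tied to the circadian clock, fell from 34.3 to 13.1 FPKM (-1.32). Zfp36, whose protein destabilises AU-rich messages, read 4.50 FPKM in NT and 1.95 FPKM in siKlf6 cultures (-0.90). Arc, which acts at synapses in neurons, went the other way and rose from 14.9 to 24.2 FPKM (0.66).

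Of 26 members of the Klf/Sp family 3 were listed, the silenced Klf6 itself among them. All 3 were lower, as were 78.5% of all rows. Klf5 fell from 5.84 to 1.00 FPKM (-1.77) and Klf4 from 3.79 to 1.12 FPKM (-1.17), both further than Klf6 on the log2 scale. Whether the siRNA acts on either of them directly was not tested.

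MAP kinase signalling genes were listed in both directions. Of 33 genes 9 were listed, 8 lower and 2 at least 2-fold lower, with a median of -0.86, which is near the 78.5% lower, the 25.8% at least 2-fold lower and the median of -0.76 over all rows. Dusp5, a nuclear phosphatase that inactivates Erk, fell from 8.29 to 1.90 FPKM (-1.68). Map3k8, a kinase upstream of Erk in inflammatory signalling, fell from 3.49 to 0.753 FPKM (-1.36). Erf, an Ets-domain repressor controlled by Erk, fell from 63.7 to 33.1 FPKM (-0.93). Dusp6, the cytoplasmic Erk phosphatase, rose from 104 to 165 FPKM (0.66), so the 2 Erk phosphatases moved in opposite directions.

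Of 31 innate immune and NF-kB signalling genes on the list 12 were listed, 12 lower and 7 at least 2-fold lower. Over all rows 78.5% were lower and 25.8% at least 2-fold lower. The median was -1.13 for the list and -0.76 over all rows. Irak1, a kinase of Toll-like receptor signalling, is not on that list, and the row it shares with 2 microRNA genes rose from 51.5 to 128 FPKM. The tumour necrosis factor receptor gene Tnfrsf1a fell from 65.7 to 35.5 FPKM (-0.87). Ltbr, the lymphotoxin beta receptor, fell from 23.4 to 9.56 FPKM (-1.21). Irgm1, an interferon-induced GTPase, fell from 15.3 to 5.82 FPKM (-1.26). Icam1, an adhesion molecule for leukocytes, fell from 2.52 to 0.504 FPKM (-1.23). Markers of microglia are among this group's own members. Cd14 fell from 1.91 to 0.146 FPKM (-1.35) and Irf8 from 1.81 to 0.667 FPKM (-0.75), and the other 13 of 15 microglia markers were not listed. The 3 listed astrocyte markers fell, as did 78.5% of all rows, with a median of -0.86 beside -0.76 over all rows. Gfap, which is also on the Stat3-target list, fell from 3.06 to 0.0752 FPKM (-1.92). Ndrg2 fell from 13.5 to 6.94 FPKM (-0.86) and Atp1b2 from 48.3 to 31.4 FPKM (-0.61). The other 12 of 15 astrocyte markers were not listed. The summed FPKM of the listed astrocyte markers went from 64.9 to 38.4, and that of the microglia markers from 3.72 to 0.813. Of 8 endothelial and mural markers only Kdr was listed, at 0.764 FPKM in NT and 0.323 FPKM in siKlf6 cultures, and none of 5 fibroblast markers was. The part of other cell types in these falls was not tested.

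**Figure D3:**
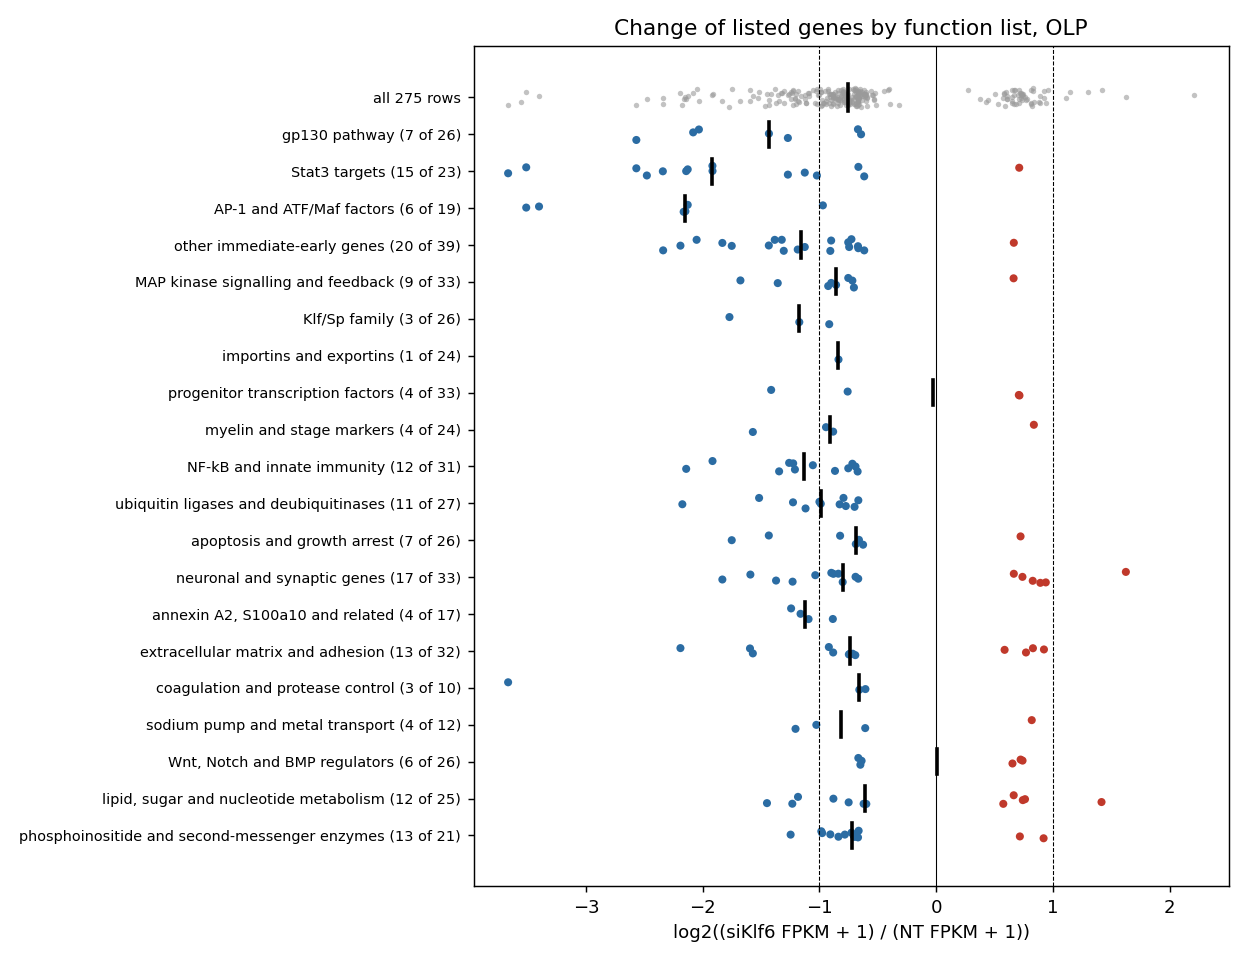
Log2 change of each listed gene (point) by function list, with all 275 rows at the top, black bars at the medians, blue for falls, red for rises and dashed lines at 2-fold. The number of listed genes of each list's genes stands in brackets. The medians of the AP-1 (-2.16), Stat3-target (-1.92) and gp130 (-1.43) lists lie left of the median of all rows (-0.76), and the Wnt, Notch and BMP list has its median at 0.01.

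Genes of protein ubiquitination were listed for 11 of 27, of which 11 were lower and 5 at least 2-fold lower, beside 78.5% and 25.8% over all rows, with a median of -0.99. Nedd4, a ubiquitin ligase, was among the most abundant transcripts of the table and fell from 252 to 54.9 FPKM (-2.17). Ndfip2, a membrane adaptor that recruits and activates Nedd4-family ligases, fell from 39.9 to 19.4 FPKM (-1.001). Trim62 fell from 39.7 to 13.2 FPKM (-1.52) and Rnf19b from 30.3 to 13.4 FPKM (-1.12), and both encode RING-type ligases. Smurf1, a ligase for Smad proteins, was lower by less, from 17.2 to 10.5 FPKM (-0.67). Nuclear import was represented by Kpna1 alone of 24 importins and exportins. This importin alpha fell from 25.1 to 13.6 FPKM (-0.84).

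Genes of apoptosis and growth arrest were listed for 7 of 26, with 6 lower, a share near the 78.5% of all rows. Ccng1, a cyclin induced by p53, fell from 208 to 129 FPKM (-0.69). Ing1, a chromatin-bound growth inhibitor, fell from 37.8 to 20.9 FPKM (-0.82). Bcl2l11, which encodes the death-promoting protein Bim, fell from 8.17 to 4.79 FPKM (-0.66). Ddit4l, an inhibitor of mTOR signalling, rose from 20.6 to 34.6 FPKM (0.72).

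Few genes of the oligodendrocyte programme were listed. None of the 10 lineage markers (among them Olig2, Sox10, Pdgfra and Mbp) had a row, so the labelled cell type could not be checked by level. Of 24 myelin and stage markers 4 were listed. Cldn11, the tight junction protein of myelin, read 18.2 FPKM in NT and 8.97 FPKM in siKlf6 cultures (-0.94). Adamts4, a metalloprotease of maturing oligodendrocytes, fell from 16.4 to 4.85 FPKM (-1.57). Itga7, a laminin-binding integrin subunit, fell from 7.27 to 3.49 FPKM (-0.88). Tns3, a focal adhesion protein of newly differentiating oligodendrocytes, rose from 35.5 to 64.2 FPKM (0.84).

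Transcription factors of neural progenitors were listed for 4 of 33 and split evenly by direction, where 78.5% of all rows were lower. Sox9, which is expressed in glial precursors and astrocytes, rose from 53.4 to 87.8 FPKM (0.71). Sox21, a repressor of the Sox family, rose from 19.7 to 32.9 FPKM (0.71). The homeobox genes fell, Dbx2 from 13.8 to 4.57 FPKM (-1.41) and En2 from 5.87 to 3.06 FPKM (-0.76). Regulators of Wnt, Notch and BMP signalling, 6 of 26, also went both ways, with 3 lower, 3 higher and none at least 2-fold. Among all rows 28% were at least 2-fold either way. Chrdl1, a secreted BMP antagonist, rose from 6.23 to 10.9 FPKM (0.72). Cxxc4, an inhibitor of Wnt signalling, rose from 2.52 to 4.88 FPKM (0.74).

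Neuronal and synaptic genes, the second largest group by listed genes, went both ways. Of 33 genes 17 were listed, 11 lower and 6 higher. With 1 FPKM added, 5 were at least 2-fold lower and 1 at least 2-fold higher. Over all rows these shares were 78.5%, 21.5%, 25.8% and 2.18%. Nrgn, a postsynaptic protein that binds calmodulin, rose from 8.96 to 29.7 FPKM (1.62). The synaptic vesicle genes Synpr and Sv2c rose, Synpr from 4.67 to 9.87 FPKM (0.94) and Sv2c from 3.66 to 7.64 FPKM (0.89). Gabrg3, a subunit of the GABA-A receptor, rose from 2.89 to 5.89 FPKM (0.83). On the other side, Vgf, a secreted neuropeptide precursor, fell from 19.7 to 4.81 FPKM (-1.83). Nptx2, a pentraxin that gathers AMPA receptors, fell from 28.1 to 11.4 FPKM (-1.23). Tubb3, a neuronal tubulin, fell from 21.97 to 6.62 FPKM (-1.59) and the neurofilament gene Nefl from 4.59 to 1.16 FPKM (-1.37). Tubb3 and Nefl were the listed 2 of 12 neuron markers, with a summed FPKM of 26.6 in NT and 7.78 in siKlf6 cultures, and their part in the group's changes was not tested.

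Calcium-binding and actin-binding genes included abundant transcripts. Tagln2, an actin-binding protein, had the highest FPKM of any row and fell from 354 to 165 FPKM (-1.09). S100a10 fell from 127 to 56.3 FPKM (-1.16) and Anxa2, the annexin that S100a10 binds, from 7.74 to 2.69 FPKM (-1.24). S100a11 fell from 58.3 to 31.1 FPKM (-0.89). These were the listed 4 of 17 on the list, and 3 were at least 2-fold lower, beside 78.5% of all rows lower and 25.8% at least 2-fold lower. The list was drawn up with earlier results of these data known.

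The extracellular matrix was listed for 13 of 32 genes, with 9 lower, 4 higher and 3 at least 2-fold lower, beside 78.5% lower and 25.8% at least 2-fold lower over all rows. Col11a1, a fibrillar collagen chain, rose from 19.04 to 37.0 FPKM (0.92), Fbln2, a matrix glycoprotein, from 11.1 to 20.6 FPKM (0.83), and the laminin chain gene Lama4 from 14.8 to 22.7 FPKM (0.59). The proteases Adamts1 and Adamts4 fell, as given above, as did the surface proteoglycan gene Sdc4, from 16.8 to 9.65 FPKM (-0.74). Tm4sf1, a tetraspanin-like surface protein, fell from 6.35 to 1.43 FPKM (-1.60). Of 10 coagulation and protease-control genes 3 were listed, Serpina3n among them, and all were lower, as were 78.5% of all rows. F2r, the thrombin receptor, fell from 41.2 to 26.7 FPKM (-0.61). The sodium pump subunits changed in opposite directions, Atp1b1 rising from 27.6 to 49.5 FPKM (0.82) while Atp1b2 fell. Slc30a4, a zinc transporter, fell from 18.9 to 7.61 FPKM (-1.21), and Slc41a1, a magnesium transporter, from 17.5 to 8.08 FPKM (-1.03).

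Metabolic genes were listed for 12 of 25, with 7 lower and 5 higher, beside 78.5% and 21.5% over all rows. The lower ones include Gxylt1, which shares its row with Yaf2, so which of them changed cannot be told apart. Car3, a carbonic anhydrase, rose from 18.3 to 50.5 FPKM (1.42). Ckmt1, the mitochondrial creatine kinase, rose from 53.4 to 91.2 FPKM (0.76). Nt5e, an ecto-enzyme that makes adenosine from AMP, rose from 4.54 to 8.26 FPKM (0.74). Hk2, the inducible hexokinase, fell from 11.5 to 4.31 FPKM (-1.23). Acsl4, which activates arachidonic acid, fell from 20.3 to 8.36 FPKM (-1.18), and Elovl6, a fatty acid elongase, from 40.8 to 26.1 FPKM (-0.62). Mthfd2l, a mitochondrial enzyme of folate metabolism, fell from 14.6 to 4.72 FPKM (-1.45).

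Enzymes of phosphoinositide and second-messenger signalling were listed for 13 of 21, with 11 lower and 2 higher, and 1 was at least 2-fold lower. The share that was lower is near the 78.5% of all rows, and the share past 2-fold is under the 25.8%. Gpr3, a receptor that raises cyclic AMP without a bound ligand, fell from 3.32 to 0.819 FPKM (-1.25). Pde4b, which degrades cyclic AMP, fell from 62.1 to 31.1 FPKM (-0.98). Pik3r3, a regulatory subunit of PI3-kinase, rose from 17.2 to 28.9 FPKM (0.72), and the diacylglycerol kinase gene Dgkk from 5.06 to 10.5 FPKM (0.92).

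Beyond these groups, the largest rise with a single symbol and an adequate locus after Nrgn and Car3 was that of Zcchc12, a zinc finger transcriptional co-activator, from 39.8 to 89.0 FPKM (1.14). Peg3, an imprinted zinc finger gene, rose from 24.1 to 45.3 FPKM (0.88). Adm, the vasodilator peptide adrenomedullin, rose from 6.71 to 12.6 FPKM (0.81). The adjacent Pnmal2 and Pnmal1 rose, Pnmal2 from 15.6 to 29.8 FPKM (0.89) and Pnmal1 from 6.93 to 12.9 FPKM (0.81). In 2 of the 6 rows at least 2-fold higher several overlapping genes share one value. The row of Mir700 and Rcan3 read 9.38 FPKM in NT and 47.0 FPKM in siKlf6 cultures (2.21), and that of Irak1, Mir5132 and Mir718, given above, had a log2 change of 1.30. Which gene of such a row changed cannot be told apart.

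Few rows of the inducible groups were also listed in iOL. Of the 275 OLP rows 18.2% also had an iOL row. Over the gp130, Stat3-target, AP-1, Klf/Sp and NF-kB lists together, 0 of 37 OLP rows had one. With the other immediate-early genes added it was 1 of 55, Arc, against 49 of the 220 remaining rows (22.3%). The lists were chosen with earlier results of these data known, so these shares are descriptions. Klf6 itself had no iOL row, so the extent of its silencing in iOL cannot be read here. Absence from the iOL table gives no level in iOL, and the difference between the stages was not tested.

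Genes listed at both stages came from the neuronal, matrix and ubiquitin groups among others. The neuronal list had 9 of its 17 OLP rows in the iOL table. Nedd4 had similar NT levels at both stages, and in iOL it read 242 FPKM in NT and 95.04 FPKM in siKlf6 cultures (log2 change -1.34). S100a10 in iOL read 61.6 FPKM in NT and 27.7 FPKM in siKlf6 cultures (-1.13). Dbx2 in iOL read 26.6 and 17.2 FPKM in the same order (-0.60). Among the rises, Zcchc12 read 14.2 FPKM in NT and 36.1 FPKM in siKlf6 cultures in iOL (1.29), and Nrgn read 3.87 and 8.97 FPKM (1.03). Of the 59 rises 27.1% had an iOL row, and of the 216 falls 15.7%.

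Gene span was not used to choose the rows, and is given here by direction and size of change. The annotation (NCBIM37, the same assembly as mm9) gave a single locus for 261 rows. The 68 loci of transcripts at least 2-fold lower had a median span of 12.1 kb with 5 exons, and 2.94% of them were over 100 kb. All falls together had a median of 19.7 kb, with 10.1% over 100 kb. Transcripts that rose had a median span of 36.4 kb with 9 exons, and 35.8% were over 100 kb. The 4 loci of transcripts at least 2-fold higher had a median of 8.53 kb and none over 100 kb. Which transcripts pass 2-fold in either direction depends on the added 1 FPKM. The 22035 annotated protein-coding genes had a median span of 15.4 kb, with 10.7% over 100 kb. Fos, Junb, Socs3 and other compact immediate-early genes are among the falls. Gabrg3, at 671 kb on chromosome 7, Synpr, at 331 kb on chromosome 14, and Tns3, at 233 kb on chromosome 11, are among the rises. With 1 FPKM added these rises are under 2-fold, whereas without it Gabrg3 read 2.04-fold and Synpr 2.11-fold higher. FPKM divides by transcript length, and a link between span and change was not tested.

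**Figure D4:**
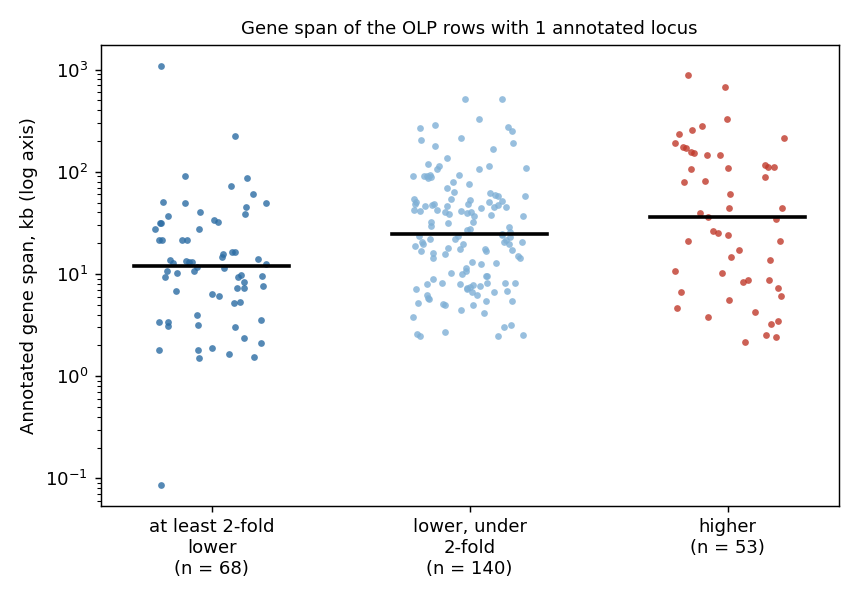
Annotated gene span in kb (log axis) of rows with a single locus, for transcripts at least 2-fold lower, lower by less and higher in siKlf6 cultures, with 1 point per row and a black line at the median. The medians are 12.1 kb for the first group and 36.4 kb for the last, the first 2 groups together have a median of 19.7 kb, and the groups overlap over most of their range.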

How the data were processed

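RNA from primary mouse OLP cultures nucleofected with Klf6 or NT siRNA was sequenced, with 2 cultures a condition, said by the study's methods to be independent. The submitters' processing notes name CASAVA 1.8, TopHat2 and Cuffdiff and the mm9 build. Other versions and the use of strand are not given in the sources used here. The authors deposited 1 pooled FPKM per condition, for rows that Cuffdiff called significant. The further deposited columns hold the authors' fold changes, test statistics and p-values and were not used beyond the significance mark. The tables had 0 columns of single cultures.

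From the FPKM values the log2 change was computed with 1 FPKM added (pandas 2.3.3), and called at 2-fold. The code that counts rows was tested on simulated data, which says nothing of the error of the values. Named genes were Klf6, all listed genes of 20 function lists (482 genes) and 6 cell type lists (65 genes), and the 15 largest falls and rises among the 197 single-symbol rows that reached 1 FPKM in NT as well as in siKlf6 and whose locus spanned 500 bp or more. Genes named in the closing section, Mir124a-3, the rows of several genes, Adamts15 and Pnmal1 fell outside this rule and were chosen after their values were seen. The rows and lists were chosen with earlier results of these data known. Some genes that this rule covers are left out of the lists and not reported here, though their rows stay in the totals. Promoters came from RefSeq (GRCm38.p6) and matched 191 of 268 rows with a single symbol, below the 80% set as the minimum for a comparison of shares, which is therefore void. Gene spans came from the GENCODE annotation of NCBIM37. Alternatives were pseudocounts of 0.1, 5 and 0 FPKM, filters at 1 FPKM, rows with a single symbol and adequate locus, and a 1.5-fold limit.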

Additional observations from a re-analysis of the deposited data

How the results depend on the processing

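The share of OLP rows that were lower in siKlf6 (78.5%, Wilson 95% interval 73.3% to 83.0%, counting error over rows only) stayed between 77.1% and 79.6% under the filters. It was 78.5% with every pseudocount, which had to be so, since a value added to both conditions cannot change a direction. The counts past 2-fold depended on the pseudocount. With 0.1 FPKM added, 125 rows were at least 2-fold lower and 21 higher, and the median absolute log2 change was 1.03 in place of 0.81. With no pseudocount these were 131, 24 and 1.06. With 5 FPKM added, 31 rows were at least 2-fold lower and the median was 0.55. A limit of 1.5-fold gave 204 lower and 50 higher. Among 159 named genes none reversed, but none could, because neither a pseudocount nor a filter nor the limit can change a gene's direction. Relative to the 2-fold limit, 22 came past it without a pseudocount and 31 lost it with 5 FPKM added, where rows under a few FPKM are compressed. Leaving out each culture was not run because the tables hold 1 value per condition. No paired analysis was possible because each condition has a lone pooled FPKM.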

Other observations

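Some of the listed genes lie close together. Within 200 kb of each other on mm9 were 15 pairs of listed genes, of which 14 changed in the same direction (93.3%), where 67.5% of all possible pairs of the rows with a locus do so. Of these pairs 11 were lower together. S100a11 and S100a10 lie 28.8 kb apart on chromosome 3, Ltbr and Tnfrsf1a 35.5 kb apart on chromosome 6, and the metalloprotease genes Adamts15 and Adamts8 20.1 kb apart on chromosome 9. Of the rises, Zim1 and Peg3 lie 7.44 kb apart on chromosome 7 and Adm and Ampd3 138 kb apart on the same chromosome. The pair that split was Fam102a, higher, and Tor2a, lower, on chromosome 2. Reads that run between neighbours were not examined.

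Imprinted genes, expressed from the copy of a single parent, included Peg3, Zim1 and Magel2, which rose, and H19, which fell. Zim1 read 0.681 FPKM in NT and 1.52 FPKM in siKlf6 cultures, Magel2 read 0.497 and 1.24 FPKM, and H19 read 1.05 and 0.116 FPKM. All 3 are near the level at which the added 1 FPKM dominates the log2 change.

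Transcripts under 1 FPKM in NT numbered 24, of which 13 fell and 11 rose. Ion channel genes stood on both sides. Scn7a, a sodium channel gene, read 0.169 FPKM in NT and 0.688 FPKM in siKlf6 cultures, and Scn3a read 0.360 and 0.831 FPKM. Hcn4, a pacemaker channel gene, read 0.877 and 0.107 FPKM, and Kcna5, a potassium channel gene, read 0.977 and 0.146 FPKM. Il1r1, the interleukin-1 receptor, read 0.946 and 0.0544 FPKM.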
